A study of Arabidopsis thaliana with 6 samples.

Results

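The regions described are assembled loci, which are stretches of the Arabidopsis thaliana genome that the study's transcript assembly placed outside the annotated genes and that carry XLOC identifiers. Of 6393 assembled loci in the counted table, 705 had a value in all 6 libraries and an expression value above 0 in both Input libraries. These 705 loci were selected on their Input values, so their Input levels and the comparisons with Input are given as a description only. The series is a UV-crosslinked RNA immunoprecipitation (RIP) of NSRa, a nuclear speckle RNA binding protein. All libraries came from whole plantlets of the nsra mutant background carrying the pNSRa:NSRa-HA construct, that is, NSRa tagged with HA and driven by its own promoter. The plantlets had been kept on the synthetic auxin NAA for 24 h, at 100 nM in one protocol of the labels and 1 µM in another. Their age is given as 10, 14 or 15 days in different labels. The groups are 2 libraries of the anti-HA precipitate (RIP), 2 of a control precipitate with IgG (Mock) and 2 of the RNA before precipitation (Input). No library came from plants without the tagged protein, so the Mock differs from the RIP by its antibody and not by its genotype.

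Loci of this kind are candidate long noncoding RNAs. Natural antisense transcripts are read from the strand opposite to a gene, and in plants they can start near either end of it. Primary transcripts of microRNA genes are also long noncoding RNAs made by RNA polymerase II, and DICER-LIKE1 cuts them in the nucleus. NSRa belongs to a small family of RNA binding proteins known to act in alternative splicing and to bind the noncoding RNA ASCO.

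The labels gave whole plantlets, and both shoot and root genes were present in Input. RBCS1A and LHCB1.3, which encode a Rubisco small subunit and an antenna protein, had 3545 and 3598 FPKM and 12560 and 12239 FPKM in the 2 Input libraries. The root genes PYK10, a beta-glucosidase, and TIP2;3, a water channel, had 1498 and 1516 FPKM and 3.48 and 3.08 FPKM. FPKM is fragments per kilobase of exon, scaled to the counted reads of the library, and the number of reads behind each value could be recovered from it. The recovered totals were 1599136 and 977230 reads for RIP, 197923 and 154149 for Mock, and 27494964 and 25274634 for Input.

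A position and an antisense partner, the annotated gene on the other strand, were found for 428 of the 705 loci in the study's annotation of assembled loci. The other 277 loci have no position here. For 318 of the 428, the position had exactly the length that was counted, so the locus is a single known stretch. For 110 the position covered another length, and no coordinates are used for them.

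Sequences are shown for the loci called higher in RIP than in Input that have a position, and for those that lie over a microRNA gene. All are from the RefSeq copy of TAIR10.1, written 5′ to 3′ on the strand of the locus. XLOC_021540 was at chr3:20132441-20132885 on the plus strand, and its first 300 bases, chr3:20132441-20132740, are printed with the 95 bases that lie opposite the uncharacterized protein-coding gene AT3G54363 in capitals. XLOC_028242 was at chr4:10448343-10448721 on the plus strand. Its last 98 bases lie opposite AT4G19080, a gene for a DUF594 protein, and the 281 bases before them, chr4:10448343-10448623, are printed.
XLOC_021540: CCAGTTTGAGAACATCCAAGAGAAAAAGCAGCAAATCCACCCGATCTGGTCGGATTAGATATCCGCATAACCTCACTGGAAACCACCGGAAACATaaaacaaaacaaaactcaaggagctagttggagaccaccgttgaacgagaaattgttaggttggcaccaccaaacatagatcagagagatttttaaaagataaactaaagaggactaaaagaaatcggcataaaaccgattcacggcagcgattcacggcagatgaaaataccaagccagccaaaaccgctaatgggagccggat
XLOC_028242: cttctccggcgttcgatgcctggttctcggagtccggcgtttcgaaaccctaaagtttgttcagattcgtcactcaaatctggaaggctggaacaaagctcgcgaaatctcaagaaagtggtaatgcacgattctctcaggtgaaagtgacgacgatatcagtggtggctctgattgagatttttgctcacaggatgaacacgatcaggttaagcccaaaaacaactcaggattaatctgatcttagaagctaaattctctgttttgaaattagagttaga

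Of the 318 single stretches, 5 shared bases with an annotated microRNA gene on their own strand. Of the 39351 rows of the counted table, values or not, 0 belong to an annotated microRNA gene. The mature microRNA is printed in capitals with 20 bases on each side, for each product that lies inside the locus. XLOC_002186 covered 377 bases of MIR167d, whose product targets auxin response factor transcripts. XLOC_033937 covered 80 bases of MIR398b, a regulator of copper superoxide dismutase transcripts, and held its 5p product. XLOC_014277 covered 135 bases of MIR403, which targets AGO2, and XLOC_024120 held both MIR169k and MIR169l, which target NF-YA factors.
XLOC_002186, ath-miR167d, chr1:11137536-11137597, plus strand: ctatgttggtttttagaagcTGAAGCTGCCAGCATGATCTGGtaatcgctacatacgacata
XLOC_033937, ath-miR398b-5p, chr5:4691013-4691073, plus strand: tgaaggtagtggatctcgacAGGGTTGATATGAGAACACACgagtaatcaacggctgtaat
XLOC_014277, ath-miR403-5p, chr2:19415057-19415118, plus strand: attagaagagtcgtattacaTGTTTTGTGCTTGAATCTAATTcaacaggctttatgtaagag
XLOC_014277, ath-miR403-3p, chr2:19415134-19415194, plus strand: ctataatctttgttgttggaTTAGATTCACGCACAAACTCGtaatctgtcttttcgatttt
XLOC_024120, ath-miR169k, chr3:9875655-9875715, minus strand: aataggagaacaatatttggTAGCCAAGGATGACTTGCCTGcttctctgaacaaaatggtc
XLOC_024120, ath-miR169l, chr3:9876020-9876080, minus strand: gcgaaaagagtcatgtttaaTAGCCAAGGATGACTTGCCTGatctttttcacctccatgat
The fifth, XLOC_026893, shared only 13 bases with the start of MIR841b, and the mature product lies outside it.

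These microRNA loci differed widely in level. XLOC_002186 had 0 reads in each RIP library and in each Mock library, against 363 and 343 reads (5.28 and 5.43 FPKM) in Input. XLOC_033937 had 0 and 7 reads in RIP, 0 and 0 reads in Mock, and 196 and 199 reads (18.9 and 20.9 FPKM) in Input. The MIR167d locus was thus seen in Input alone, and the MIR398b locus in 1 of 2 RIP libraries. XLOC_026893, at the edge of MIR841b, had 4 and 4 reads in RIP, 0 and 0 in Mock, and 4 and 7 in Input. XLOC_014277 and XLOC_024120 had no RIP or Mock read and no more than 5 reads in either Input library, which is too few to compare.

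The single stretches lay at the ends of their partner genes. The locus ran over the 5′ end of the partner in 209 of 318 cases (65.7%), over its 3′ end in 79 (24.8%), lay wholly inside it in 20 and spanned it in 9, and 1 shared no base with it in TAIR10.1. The partner was a protein-coding gene for 233 loci, a lncRNA gene for 40, a pseudogene for 18 and a transcribed pseudogene for 11. The loci were short, with a median of 235 bases, and 72.4% of their summed length lay outside the partner.

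The overlap with the partner stopped at a sharp length. Of the 288 loci that ran over one end, 273 shared 100 bases or fewer with the partner, 116 of them between 91 and 100 bases, and 0 shared between 101 and 110. The median overlap over all 318 was 90.5 bases. The sources used here do not say whether a limit was set when the loci were assembled or annotated. Loci at the 5′ end and at the 3′ end had like lengths, with medians of 237 and 249 bases, and like Input levels, with medians of 0.333 and 0.433 FPKM.

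**Figure D1:**
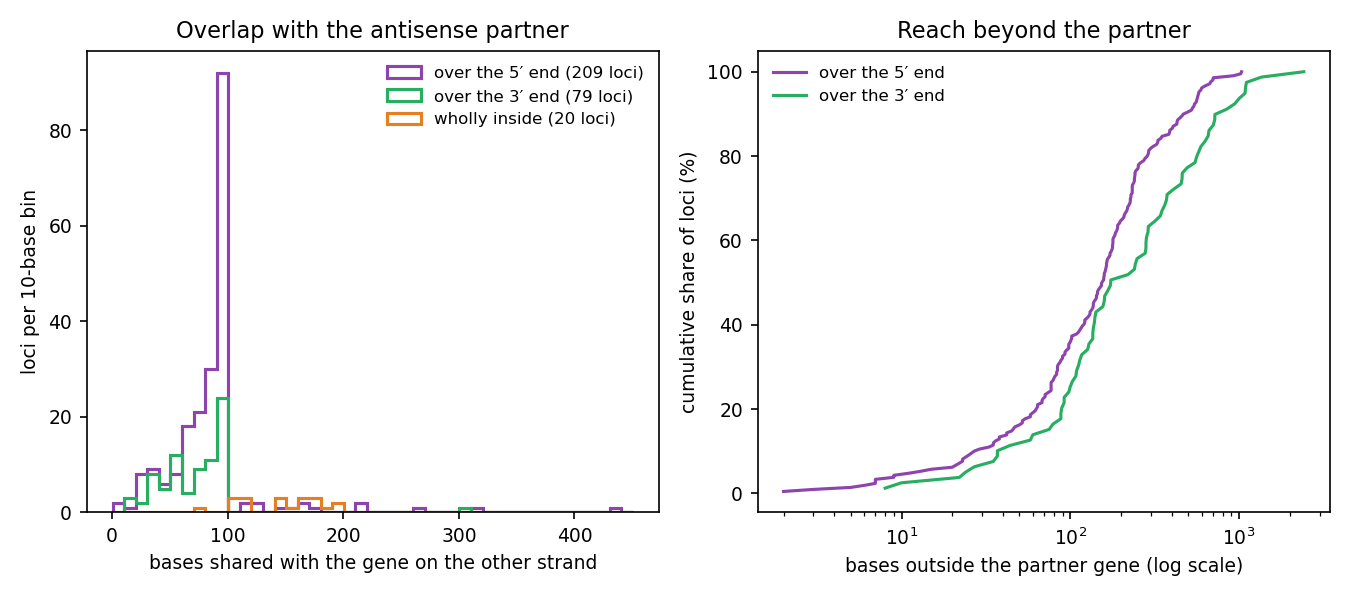
Left, number of loci (y) by bases shared with the gene on the other strand (x, 10-base bins) for loci over the 5′ end, over the 3′ end or wholly inside the partner; right, cumulative share of loci (y, percent) by the bases that reach beyond the partner (x, log scale). The counts rise up to 100 shared bases and drop there, and 209 loci lie over the 5′ end against 79 over the 3′ end.

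Most of the loci did not lie close to an annotated gene of their own strand. The median distance to the nearest one was 1769.5 bases, and 28 of 318 lay within 200 bases, overlaps included. XLOC_021540 was one of 2 that ended on the base beside such a gene: AT3G54366, annotated as a noncoding RNA, starts at chr3:20132886. AT3G54366 had 21.0 and 11.8 FPKM in RIP, 0 and 0 FPKM in Mock, and 26.7 and 27.4 FPKM in Input. XLOC_021540 itself had 7.03 and 9.20 FPKM in RIP, 0 and 0 FPKM in Mock, and 0.0817 and 0.0889 FPKM in Input. The noncoding gene was therefore lower in both RIP libraries than in both Input libraries. The adjoining locus had 5 and 4 reads in RIP against 1 and 1 read in Input. It was under 1 FPKM in both Input libraries, so nothing is read from its higher RIP values.

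Input levels of the 705 loci were low and unequal. The mean Input FPKM ranged between 0.0345 and 195, with a median of 0.332, and 129 loci (18.3%) had at least 1 FPKM in both Input libraries. The median locus held 2 reads in each Input library. Just inside the rule lay 158 loci with a single read in each Input library, and just outside it 1229 loci with a single read in 1 of the 2. The 115 loci with at least 10 reads in each had nearly the same order in both libraries (Spearman's rho 0.968, across loci of 2 libraries) and a median absolute log2 difference of 0.17.

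A few loci held most of the Input reads. The 10 loci with the most reads made up 60.4% and 60.8% of all reads at the 705 loci. XLOC_001724, listed as antisense to AT1G24996, had 99.0 and 99.0 FPKM in RIP, 0 and 114 FPKM in Mock, and 194 and 195 FPKM in Input. Its mean RIP value was thus 0.509 times its mean Input value, and its single Mock value rested on 12 reads. XLOC_006438, listed as antisense to the defensin-like gene AT1G13608, had 11 and 0 reads in RIP, 0 and 0 reads in Mock, and 2934 and 2693 reads (173 and 173 FPKM) in Input. This locus was nearly as abundant as XLOC_001724 in Input but close to absent from RIP. The listed positions of XLOC_001724 and XLOC_006438 did not have the counted length and shared 0 bases with the listed partners. XLOC_011546, at chr2:4483649-4484428 over the 5′ end of the pseudogene AT2G11240, had 28.1 and 24.9 FPKM in RIP, 0 and 0 FPKM in Mock, and 77.0 and 81.8 FPKM in Input.

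The other loci of highest Input level also split by their RIP reads. XLOC_009735, listed as antisense to the lncRNA gene AT1G08847, had 40.6 and 41.7 FPKM in RIP, 0 and 0 FPKM in Mock, and 21.1 and 21.6 FPKM in Input. XLOC_009772 had 0 and 1 read in RIP, 0 and 0 in Mock, and 866 and 832 reads (47.1 and 49.2 FPKM) in Input. XLOC_006459, listed as antisense to the remorin gene AT1G13920, had no RIP or Mock read against 229 and 240 reads in Input. XLOC_024553 had 6 and 0 reads in RIP, 0 and 0 in Mock, and 346 and 342 in Input. The first of these 4 was higher in each RIP library than in each Input library, and the other 3 were lower.

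A pair of loci flanked 1 noncoding gene. XLOC_003052, at chr1:17295580-17295668, lay over the 3′ end of the lncRNA gene AT1G07323, and XLOC_003053, at chr1:17295908-17296306, over its 5′ end. XLOC_003052 had no RIP or Mock read and 47 and 43 reads in Input. XLOC_003053 had 0 and 9 reads in RIP, 0 and 1 in Mock, and 231 and 189 in Input. AT1G07323 itself was listed at 0 in every library, so the reads came from the other strand alone.

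**Figure D2:**
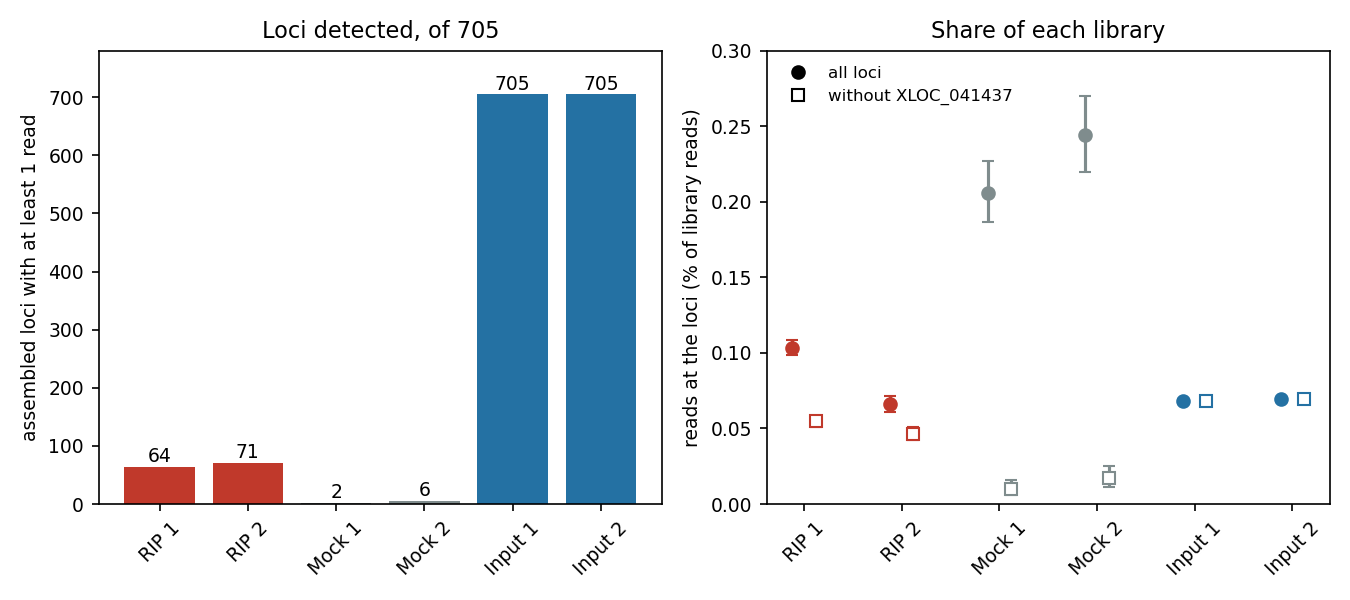
Left, number of the 705 loci with at least 1 read in each library; right, reads at the loci as a percentage of each library's reads, with 95% Clopper-Pearson intervals, for all 705 loci (filled) and without XLOC_041437 (open). The bars stand at 64 and 71 loci in RIP and 2 and 6 in Mock, against 705 in each Input library, and without XLOC_041437 the Mock share lies at 0.0101% and 0.0175%.

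Few of the loci were seen in the precipitates. At least 1 read was recovered at 64 (9.08%) and 71 (10.1%) loci in the 2 RIP libraries and at 2 (0.284%) and 6 (0.851%) loci in the 2 Mock libraries, while all 705 were above 0 in Input by the rule. The RIP libraries shared 27 loci, which is 42.2% of those in RIP 1 and 38.0% of those in RIP 2. In all, 596 loci had no read in any of the 4 precipitate libraries. Among detected loci, the median was 9 reads in RIP 1 and 4 in RIP 2, and only 5 and 9 loci rested on a single read.

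The counts have to be read against depth. At its Input share the median locus would have given 0.151 and 0.0920 reads at the depth of RIP 1 and RIP 2, and 0.0186 and 0.0145 reads at that of Mock 1 and Mock 2, so absence from RIP says nothing for most loci. For 34 loci the Input share came to at least 3 reads in each RIP library: 12 of them were detected in both, 14 in 1 and 8 in neither. In both RIP libraries, 21 of the 34 lay under their Input share and 5 above it. Conversely, 613 loci had an Input share under 1 read in both RIP libraries, and 64 of these were detected in at least 1 of them, 8 in both. For Mock, 5 loci had an Input share of at least 3 reads in each library, and all 5 lay under that share in both. The median log2 fold change of Mock over Input was -2.70 over all features tested, so nothing is read from this either.

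**Figure D3:**
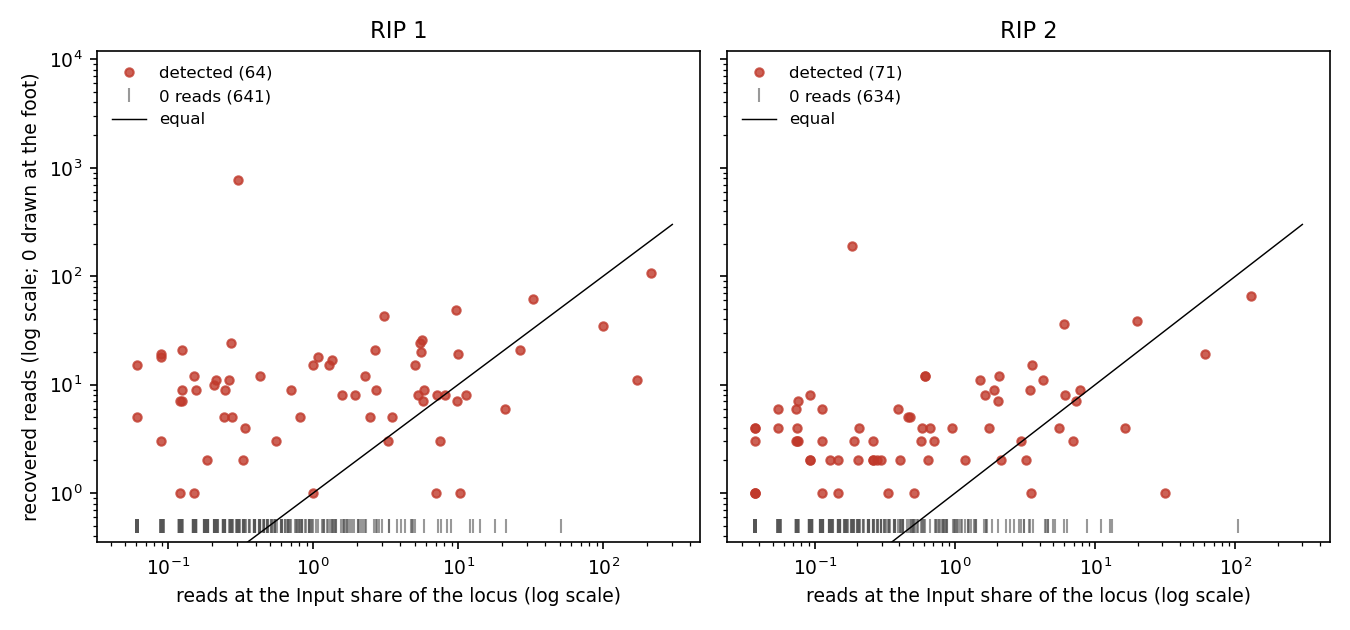
Recovered reads of each locus (y, log scale; loci with 0 reads as ticks at the foot) against the reads its mean Input share would give at the depth of that library (x, log scale), for RIP 1 and RIP 2; the line marks equal values. Detected loci spread widely on both sides of the line, and XLOC_041437 stands alone at 778 and 191 reads.

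The summed reads depended on a single locus. All 705 loci together took 0.103% (95% Clopper-Pearson interval 0.0984 to 0.108%) and 0.0659% (0.0609 to 0.0712%) of the RIP reads, 0.206% (0.187 to 0.227%) and 0.244% (0.220 to 0.270%) of the Mock reads, and 0.0684% (0.0674 to 0.0693%) and 0.0693% (0.0683 to 0.0703%) of the Input reads. Such intervals cover counting error only, since reads copied from 1 molecule are not independent. Without XLOC_041437 the shares were 0.0547% and 0.0464% in RIP, 0.0101% and 0.0175% in Mock, and 0.0683% and 0.0693% in Input. The Mock share thus turned from the highest of the groups to the lowest when 1 locus of 705 was left out.

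XLOC_041437 was the only locus with 3 or more reads in both Mock libraries. It had 778 and 191 reads (1544 and 620 FPKM) in RIP, 388 and 349 reads (6223 and 7187 FPKM) in Mock, and 6 and 4 reads (0.693 and 0.502 FPKM) in Input. Its values did not overlap between the groups, with Mock highest and Input lowest. As a share of library reads, Mock stood 6.19-fold above RIP in the mean, but the difference did not pass in the fit (RIP over Mock, log2 fold change -2.77 ± 0.54 SE, adjusted p = 0.018 by limma with Benjamini-Hochberg adjustment). The locus has an inferred length of 315 bases and no position, so its sequence is not shown. It took 47.1% and 29.7% of all RIP reads at the 705 loci.

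In all, 6 more loci had any Mock read, and none had one in both libraries. XLOC_010745, at chr2:9508-9718 over the 3′ end of AT2G01023 and near the ribosomal RNA genes that start this chromosome arm, had 19 and 4 reads in RIP, 20 and 0 in Mock, and 2 and 1 in Input. XLOC_011277, at chr2:3261874-3263361, had 12 and 8 reads in RIP, 0 and 12 in Mock, and 3 and 2 in Input. That stretch of chromosome 2 is known for a large insertion of mitochondrial DNA. Both loci had more reads in each RIP library than in either Input library, and each had 1 Mock library at 0. Both were under 1 FPKM in both Input libraries and reached that level only in the precipitates, so nothing is read from this difference. XLOC_001724 had 0 and 12 Mock reads. XLOC_003053, XLOC_017164 and XLOC_030841 had a single read in Mock 2.

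The RIP and Mock libraries, whose values the rule did not use, were compared by limma on log2(FPKM + 1). The fit drew its spread from all 6 libraries, the Input libraries that chose the loci included. Only 145 of the 705 loci passed the minimum of 1 FPKM in at least 2 libraries. Of these, 129 reached the minimum in both Input libraries, and the other 16 needed at least 1 precipitate library to pass. Higher in RIP than in Mock, with a log2 fold change of at least 1 and an adjusted p under 0.01, were 16 of the 145 loci (11.0%), against 34.3% of all 19997 features tested. None was lower, against 0.18% of all features. Of the 16, 5 had passed the minimum only through the RIP libraries, where they were high, and nothing is read from those. They were XLOC_012074, XLOC_013647, XLOC_014227, XLOC_021540 and XLOC_026893. When the fit held only the RIP and Mock libraries, the count was 0 in both directions, as it was over all 19997 features. In that fit and in the fit over all 6 libraries alike, before adjustment, p was under 0.05 for 20 higher loci and 1 lower locus by limma. The matching counts over all features were not made, so nothing is read from these. With the replicate number as a block, 10 loci were higher, against 5263 of all 19997 features. With limma's voom on the recovered reads 0 were higher and 81 lower, against 28 and 1762 of all features. Of the 145 loci, 82 had 0 reads in both RIP libraries. Where a locus has 0 reads in both groups, voom gives it a difference set by library depth alone. Nothing is read from the lower count with voom. Quantile normalization gave 2 higher and 74 lower, against 228 and 1785 of all features. The median log2 fold change was 0.00 over the 145 loci and 2.13 over all features tested, and 138 of the 145 were at 0 in both Mock libraries. The count depended on single libraries, but leaving 1 out left 1 library in a group. Nothing is read from those counts, and only effect sizes are described here. The median then stayed at 0.00 over the 145 loci and lay between 1.82 and 2.62 over all features.

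All 16 loci had 0 reads in both Mock libraries, so their fold changes rest on what a Mock read would be worth. Taken against a floor of 3 reads over the Mock group, 8 of the 16 had a RIP level above that floor. XLOC_009735 was at least 4.62-fold higher in RIP than in Mock (log2 fold change 5.40 ± 0.22 SE, adjusted p = 0.00056 by limma with Benjamini-Hochberg adjustment). XLOC_002234 was at least 3.96-fold higher, and XLOC_011546 at least 2.43-fold. XLOC_013647 was at least 2.12-fold higher. For XLOC_028242, XLOC_014227, XLOC_011632 and XLOC_032421 the bound lay between 1.18-fold and 1.27-fold. XLOC_013647 and XLOC_014227 had passed the FPKM minimum only through the RIP libraries, so nothing is read from their bounds. The other 8, among them XLOC_021540, had too few RIP reads for an absence from Mock to be told at this depth. XLOC_039261 had 18 and 4 reads in RIP and 23 and 13 in Input, and XLOC_017579, listed as antisense to the knottin gene AT2G43535, 5 and 11 in RIP and 38 and 43 in Input. XLOC_003965, at chr1:21801566-21802332 over the 5′ end of the pseudogene AT1G58889, had 8 and 2 reads in RIP and 38 and 26 in Input. XLOC_006467 had 8 and 3 reads in RIP against 189 and 185 in Input, and XLOC_030111 had 5 and 2 against 57 and 58. In FPKM the first 3 stood above Input in both RIP libraries and XLOC_006467 below it, while the RIP and Input values of XLOC_030111 overlapped.

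**Figure D4:**
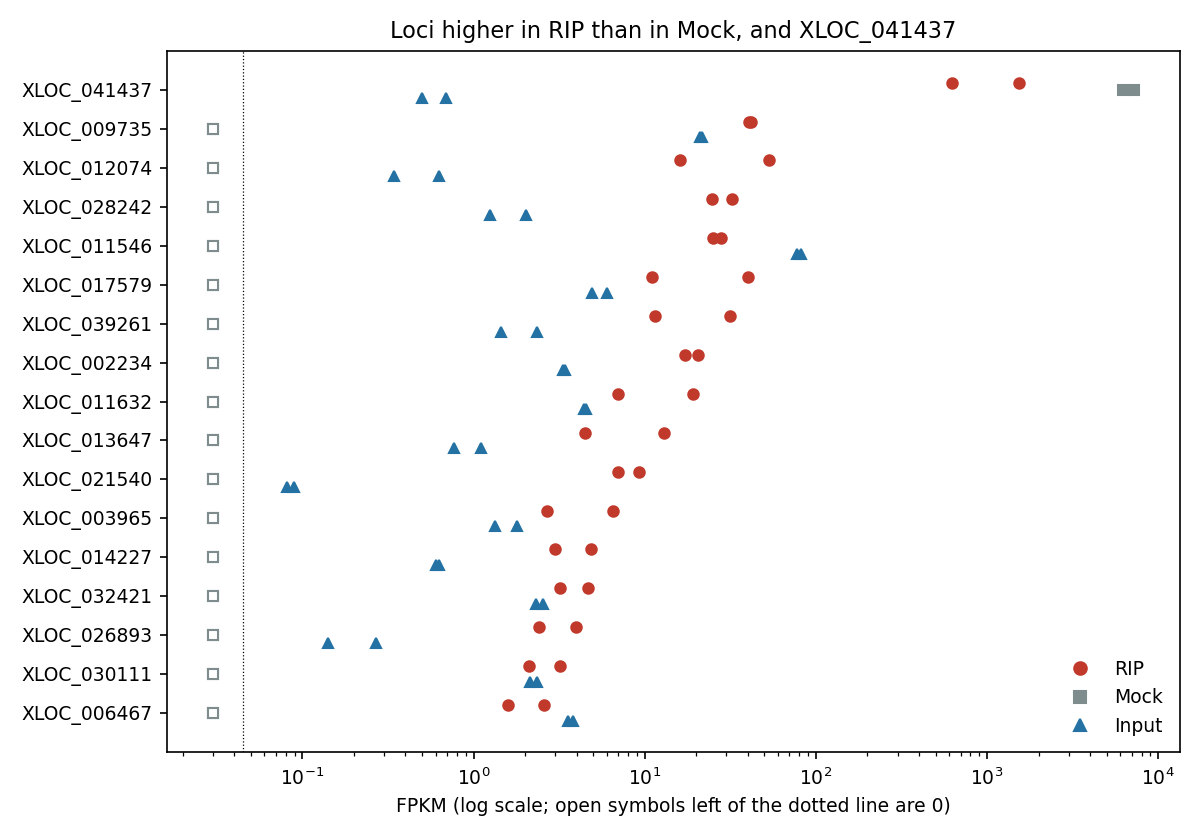
FPKM (x, log scale; 0 drawn left of the dotted line) in each RIP, Mock and Input library for the 16 loci called higher in RIP than in Mock, and for XLOC_041437 at the top (y, loci ordered by mean RIP value). All 16 are at 0 in both Mock libraries, and their Input values lie on either side of their RIP values.

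Against Input the call needed an adjusted p under 0.01 and more than 2 on the log2 scale. It was met upwards in RIP by 4 of the 145 loci (2.76%, against 1.48% of all features), and downwards by 32 (22.1%, against 5.78%). Since the loci were selected on Input values, nothing is read from these counts. The higher count depended on single libraries, but leaving 1 out left 1 library in a group. Nothing is read from those counts, and only effect sizes are described here. The median log2 fold change of RIP over Input then lay between -1.38 and -1.24 over the 145 loci. Over all features it lay between -0.545 and -0.398. In Mock, 1 locus was higher than in Input (against 0.715% of all features) and 40 were lower (27.6%, against 41% of all features).

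The 4 loci higher in RIP than in Input were XLOC_002234, XLOC_028242, XLOC_021540 and XLOC_041437. The last 2 were under 1 FPKM in both Input libraries and passed the minimum only through the precipitates, where they were high. Nothing is read from their calls or ratios. XLOC_002234, which has no position, had 49 and 36 reads (17.1 and 20.5 FPKM) in RIP, 0 and 0 reads in Mock, and 164 and 156 reads (3.33 and 3.44 FPKM) in Input. Its share of library reads was 5.56-fold higher in RIP than in Input. XLOC_028242, whose sequence is printed above, had 15 and 12 reads (24.7 and 32.4 FPKM) in RIP, 0 and 0 reads in Mock, and 21 and 12 reads (2.02 and 1.25 FPKM) in Input, 17.5-fold higher in RIP. XLOC_021540 had 9 RIP reads and 2 Input reads in all, and no ratio is given for it. For XLOC_002234 and XLOC_028242, each RIP library stood above each Input library.

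The first 3 also passed against Mock and held at least 2 CPM (reads scaled to the library total) in each RIP library, which are the thresholds the study set for putative targets, though here with CPM in place of TPM and with another test. That makes 3 of 145 loci, against 0.965% of all features tested. XLOC_021540 is among the 3 but was tested only through its RIP values, so nothing is read from it. The count was 0 when each fit held only the groups compared, 1 with the replicate block and 5 with a pseudocount of 0.1. Quantile normalization gave 1 and voom 0. Over all features those counts were 0, 87, 292, 77 and 0. Leaving out 1 library also changed the count, but left 1 library in a group. XLOC_041437 met the rule against Input and was not higher than in Mock.

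The 32 loci lower in RIP than in Input were in large part too shallow to read. In all, 31 of the 32 had 0 reads in both RIP libraries, and 23 had an Input share of under 3 reads in at least 1 of them. Among the 5 with the most negative fold changes, XLOC_003052 would have given 2.73 and 1.67 RIP reads at its Input share, XLOC_003754, over the 3′ end of the glycine-rich protein gene AT1G55990, 4.01 and 2.45, and XLOC_017580 2.04 and 1.24. All 3 had 0 RIP reads, from a share of under 3 reads in at least 1 library. XLOC_006459 would have given 14.3 and 8.71 reads and had 0 and 0. XLOC_009772 would have given 51.5 and 31.5 reads and had 0 and 1.

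That leaves 9 loci whose Input share came to 3 or more reads in each RIP library. Beside XLOC_009772 and XLOC_006459 they were XLOC_002186 over MIR167d, XLOC_038295, XLOC_018717, XLOC_000952, XLOC_037628, XLOC_026629 and XLOC_028266. XLOC_002186 was at least 11.5-fold lower in RIP than in Input, counted against a floor of 3 reads over the RIP group, and XLOC_038295 at least 9.58-fold lower. XLOC_018717, over the 5′ end of the pseudogene AT3G13270, was at least 3.88-fold lower. XLOC_009772, from 1 RIP read and 1698 Input reads in all, had an Input share 82.9 times its RIP share (95% Clopper-Pearson interval 14.9 to 3276). The other 4 had between 73 and 145 reads in each Input library and 0 in both RIP libraries. Absence of these RNAs from Mock was not informative, as only 4 of the 40 loci lower in Mock had an Input share of 3 or more reads in each Mock library.

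Several loci with many RIP reads passed against Mock but not against Input. Of those below, XLOC_013647 and XLOC_014227 were tested only through their RIP values. Their values are given as a description, and nothing is read from their calls. XLOC_013647 had 43 and 9 reads (13.0 and 4.45 FPKM) in RIP, 0 and 0 in Mock, and 63 and 40 reads (1.11 and 0.765 FPKM) in Input. XLOC_014227 had 21 and 8 reads in RIP, 0 and 0 in Mock, and 45 and 43 in Input. XLOC_032421 had 19 and 8 reads in RIP, 0 and 0 in Mock, and 180 and 150 in Input. Each had a higher FPKM in both RIP libraries than in both Input libraries. The first 2 stood 9.32-fold and 6.39-fold above Input as shares of library reads, and XLOC_032421 only 1.61-fold.

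The antisense loci were compared with the gene on the other strand, in FPKM, for the 200 single stretches whose partner had at least 10 reads in each Input library. The loci had medians of 0.334 and 0.347 FPKM in the 2 Input libraries, and the partners 8.72 and 8.90 FPKM. The median log2 ratio of locus to partner was -4.31 and -4.38. Levels of the 2 strands showed no rank relation across pairs (Spearman's rho 0.00 and 0.04, across pairs of the same libraries, as a description). The median of the 705 loci held 2 reads in each Input library. At so few reads the ranks cannot tell whether the strands vary together. The gap between strands was wide at RBCS3B, a Rubisco small subunit gene with 2217 and 2390 FPKM in Input, whose antisense locus XLOC_035633 held 0.0885 and 0.0963 FPKM, a single read in each library.

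**Figure D5:**
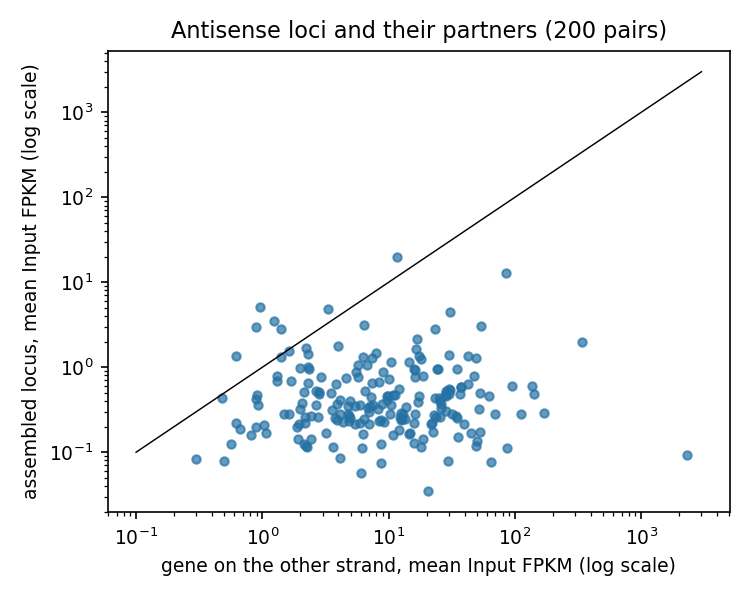
Mean Input FPKM of the assembled locus (y, log scale) against that of the gene on the other strand (x, log scale) for 200 pairs; the line marks equal values. Most pairs lie far below the line. No trend is seen across the plot, where many loci rest on few reads.

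In 7 of the 200 pairs the locus stood above its partner in both Input libraries. The MIR398b locus XLOC_033937 had 18.9 and 20.9 FPKM, against 11.9 and 11.2 FPKM for AT5G14550, a gene of the N-acetylglucosaminyltransferase family. XLOC_007686, over the 3′ end of AT1G32120, had 3.79 and 6.39 FPKM, against 0.898 and 1.01 FPKM for that gene. XLOC_033940, over the 3′ end of AT5G14580, a gene for polyribonucleotide nucleotidyltransferase, had 5.06 and 4.61 FPKM, against 3.13 and 3.45 FPKM. The other 4 were XLOC_002240, XLOC_013076, XLOC_028549 and XLOC_034803, the last opposite the glutamate receptor gene GLR2.1.

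In the precipitates, detection of the 2 strands is given side by side. The partners had been chosen for at least 10 reads in each Input library and the loci for more than 0, so nothing is read from the gap in detection. Of the 200 pairs, the locus was detected in 9 and 15 and the partner in 164 and 151 in the 2 RIP libraries. In the 2 Mock libraries the locus was detected in 0 and 1 and the partner in 18 and 40. Both RIP libraries held the locus in 4 pairs.

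The strands of these 4 pairs differed in their values. XLOC_017164, at chr2:16011058-16011332 over the 5′ end of PDX1.1, a vitamin B6 synthesis gene, had 59.1 and 33.5 FPKM in RIP, 0 and 23.6 FPKM in Mock, and 13.2 and 12.4 FPKM in Input. PDX1.1 had 116 and 124 FPKM in RIP, 0 and 70.8 FPKM in Mock, and 85.6 and 83.3 FPKM in Input. XLOC_011632, at chr2:5049716-5050522 over the 3′ end of AT2G12462, a SAM domain protein gene, had 6.97 and 19.0 FPKM in RIP and 4.42 and 4.56 FPKM in Input. AT2G12462 had 1.35 and 3.31 FPKM in RIP and 30.0 and 30.9 FPKM in Input. The antisense locus was thus above its partner in RIP and below it in Input.

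XLOC_012074, at chr2:7767945-7768060 over the 5′ end of AT2G17880, which encodes a DnaJ-domain chaperone, had 16.2 and 52.9 FPKM in RIP and 0.627 and 0.341 FPKM in Input. AT2G17880 had 39.7 and 24.9 FPKM in RIP and 2.48 and 3.10 FPKM in Input. Both strands had a higher FPKM in each RIP library than in each Input library, with 3 and 6 RIP reads behind the locus. XLOC_012074 passed the FPKM minimum only through the RIP libraries, so nothing is read from its higher RIP values. For XLOC_021540, AT3G54363 was listed at 0 in both RIP libraries and had 4.43 and 3.80 FPKM in Input, so the locus had RIP reads and its partner had none. XLOC_028242 fell outside the 200 pairs, since its partner AT4G19080 had only 10 and 8 reads in Input. That gene had 0 and 4.36 FPKM in RIP and 0.310 and 0.270 FPKM in Input.

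Annotated genes are given beside the loci as a description. Of annotated lncRNA genes, 312 were tested, of which 29.5% were higher in RIP than in Mock and 8.33% higher in RIP than in Input. The 145 assembled loci gave 11.0% and 2.76%. Protein-coding genes gave 34.9% and 0.964%. These shares are descriptions of unequal levels, and no test of the differences was made. The groups shared the FPKM minimum, but only the assembled loci also had to be above 0 in both Input libraries. The shares are therefore not like for like.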

How the data were processed

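Ribosomal RNA-depleted total RNA was sequenced as single-end reads of 75 bases in all 6 libraries. The authors used STAR for alignment and a strand-aware count in Union mode, and the build in the submitters' notes is TAIR10; tool versions are not given in the sources used here. Although described as counts, the deposited values are FPKM, scaled by the authors. Whole reads were recovered from them with the exon length of each annotated gene, and with the position or an inferred length for each assembled locus (318 and 387 loci). On annotated genes the inference gave the true length for 85.0 to 94.3%, and an inferred length is otherwise mostly too short, so that reads are then too few. No value was present for 684 assembled loci in RIP and Mock, and these were not analysed here.

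Positions and antisense partners came from the study's annotation of assembled loci, which was held only in part. Genes, exons and sequence came from TAIR10.1, whose nuclear chromosomes have the lengths of TAIR10.

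For the tests, limma 3.58.1 (R 4.3.3) was fitted to log2(FPKM + 1) over all 6 libraries with a mean-variance trend. A feature was tested where 2 or more libraries reached 1 FPKM, and p-values were adjusted by Benjamini-Hochberg over all of them. Calls needed an adjusted p under 0.01 and a log2 fold change above 2 against Input, or of at least 1 for RIP against Mock. Fold changes on this scale understate the change of low features. The fit was also run on simulated data, but no result of that run is given here. Nothing is read from it about loci with few reads. P-values measure the spread between libraries, which may be technical.

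Loci named are those higher in RIP than in Input, the 10 of highest Input level, the 10 with the most RIP reads, those with at least 3 reads in both Mock libraries and the 5 most negative among the lower calls. Further loci were named after their values were seen: those with any Mock read, those called higher than Mock, the lower calls with enough reads, those at microRNA genes and the pairs described. The loci and lists were chosen with earlier results of these data known.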

Additional observations from a re-analysis of the deposited data

Results flagged for a closer look

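In all, 7 assembled loci outside the rule, which had no read in at least 1 Input library, had at least 3 reads in both RIP libraries and none in either Mock library. XLOC_012931, a stretch of 199 bases at chr2:12619124-12619322 opposite AT2G00850, had 423 reads in RIP together, 283 and 140 in the 2 libraries (889 and 720 FPKM), against 0 and 0 in Mock and 1 and 0 in Input. XLOC_011300, at chr2:3297356-3297823 opposite the pseudogene AT2G07682, had 119 RIP reads, 99 and 20, and none in Input. XLOC_011372 (20 RIP reads, opposite AT2G07724) and XLOC_011324 (7 RIP reads, opposite AT2G07688) lie on the same stretch of chromosome 2. XLOC_005343 had 17 RIP reads, and XLOC_007653 and XLOC_015502 had 14 each. Of the 705 loci, only XLOC_041437 held more RIP reads than XLOC_012931.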

How the results depend on the processing

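Counts are out of 145 tested loci. Counts made with 1 library left out come from fits with 1 library in a group. They are listed without the matching counts over all features, and nothing is read from them. Limits come first: most loci gave under 1 expected RIP read, the Mock libraries were the shallowest, and each group had 2 libraries. Loci higher in RIP than in Input numbered 4, and 2 with the replicate block and 0 with voom. Over all 19997 features those counts were 296, 152 and 50. Lower loci numbered 32, and 81 with a pseudocount of 0.1, 6 with quantile normalization and 0 with voom. Over all features these were 1155, 1972, 298 and 6. Higher in RIP than in Mock were 16 loci, and 0 with only the groups compared and 10 with the replicate block. Quantile normalization gave 2 and voom 0. Lower were 0, and 74 with quantile normalization and 81 with voom. Nothing is read from the 81, since voom sets loci at 0 reads in both groups apart by library depth alone. Over all features the higher counts were 6853, 0, 5263, 228 and 28, and the lower counts 36, 1785 and 1762. Higher in Mock than in Input was 1, and 5 with voom, against 143 and 235 of all features. Lower were 40, and 98 with a pseudocount of 0.1, 4 with quantile normalization and 2 with voom. Over all features these were 8205, 10404, 574 and 2642. Both RIP comparisons were passed by 3 loci, and by 0 with only the groups compared, 1 with the replicate block, 5 with a pseudocount of 0.1, 1 with quantile normalization and 0 with voom. Leaving out 1 library at a time gave 0 to 13 and 29 to 38 loci higher and lower in RIP than in Input, 5 to 37 and 0 to 2 in RIP than in Mock, 1 to 3 and 34 to 52 in Mock than in Input, and 0 to 6 passing both.

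Deviations of same-numbered libraries correlated at 0.01 for RIP and Input, 0.01 for RIP and Mock, and -0.00 for Mock and Input. Those values cannot show whether same-numbered libraries came from the same extract. The paper states that part of the input fraction was kept for RNA extraction. Counts with the replicate block are therefore given above. Of 480 refits of the named loci, 395 kept the direction and the call, 62 lost the call, 21 gained it and 2 turned, XLOC_014227 and XLOC_032421 against Mock with quantile normalization, both at -0.24. With partners of at least 100 reads, the median log2 ratio of locus to partner was -5.25, against -4.34. Leaving out XLOC_041437, an alternative chosen after seeing the data, moved the share of reads to 0.0547% and 0.0464% in RIP and 0.0101% and 0.0175% in Mock. Shares moved within their intervals when only annotated nuclear genes made the total. The causes of these shifts were not tested.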
